A study of Mus musculus with 6 samples.

Results

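The mitochondrial calcium uniporter and its partners were examined in mouse mammary tumour explant cells with and without a hairpin against CdGAP. The 9 genes, taken by symbol from 41214 genes counted, were Mcu, Micu2, Micu3, Smdt1, Letm1, Slc8b1, Vdac1, Vdac2 and Vdac3. They were brought together because Micu2 reads were nearly absent from the shCdGAP libraries. The Micu2 difference between groups is therefore described without a test, while the other 8 genes are read from a test over all genes. All 9 had enough counts to enter that test. The explant cells go back to NMuMG, an epithelial line from normal mouse mammary gland, and carry the oncogenic receptor ErbB2. Libraries of 3 replicates carried a control hairpin (shCTL, labelled wild type) and 3 carried a hairpin against CdGAP (shCdGAP, labelled knockdown), a protein that switches off the GTPases Cdc42 and Rac1. The labels do not say whether either group was a pool of cells or 1 clone, nor whether replicates were separate cultures, so the p-values reflect only library-to-library spread, possibly technical.

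The uniporter is the main route by which calcium enters the mitochondrial matrix. Calcium first crosses the outer membrane through VDAC channels and then the inner membrane through a pore built from MCU, which needs the small subunit EMRE (gene Smdt1) to conduct. MICU2 and its paralog MICU3 are regulatory subunits that sense calcium on the outer face of the inner membrane through EF-hands and help to gate the pore. MCUB resembles MCU and lowers conduction where it joins the pore. Calcium leaves the matrix through the sodium-calcium exchanger NCLX (gene Slc8b1), and LETM1 exchanges cations for protons. Matrix calcium stimulates several dehydrogenases of energy metabolism.

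The libraries held 19176540 to 26824249 counts each, and a single count was worth 0.0364 to 0.0516 CPM (counts scaled to 1e+06 per library, scaled by the TMM method). The first principal component held 72.0% of the variance and parted the groups. The next held 21.7% and set shCdGAP replicate 1 (66.6) apart from the other shCdGAP libraries (−31.4 and −43.2). On it shCTL replicate 1 (16.4) was shifted the same way, by less, from the other shCTL libraries (−3.70 and −4.71). The shCdGAP replicate 1 library matters for several of the genes, and values without it are given where they differ. Arhgap31, which encodes CdGAP, stood at 13.2, 14.4 and 15.1 CPM in shCTL and 1.70, 9.16 and 8.21 CPM in shCdGAP. Its log2 fold change was −1.16 ± 0.55 (SE), with an adjusted p of 0.19 on all libraries and 0.00407 without shCdGAP replicate 1 (log2 fold change −0.71). Of 9 markers of mammary epithelium 7 were tested, of which 2 rose and 2 fell. Over all tested genes, 10.4% rose and 11.4% fell. Krt8 and Krt18 were abundant in every library and were not called. Cdh1 (232 ± 51.5 to 768 ± 85.3 CPM, adjusted p = 0.00193) and Krt7 (1.86 ± 0.320 to 5.57 ± 1.81 CPM, adjusted p = 0.016) rose. Krt5 and Epcam, low in shCTL (1.33 ± 0.278 and 1.29 ± 0.317 CPM), fell (adjusted p = 0.00138 and 0.00343), and Krt14 and Cldn4 stayed at or under 1 CPM throughout. The summed epithelial markers ran from 5910 to 8420 CPM in shCTL and from 7180 to 11000 CPM in shCdGAP. Markers of other cells were scarce. Summed leukocyte markers (1 of 7 at 0 in all libraries) ran from 18.1 to 23.3 CPM in shCTL and 6.26 to 18.1 CPM in shCdGAP. Fibroblast markers (2 of 8 at 0) ran from 5.35 to 6.29 and 3.41 to 7.06 CPM. Endothelial markers (1 of 6 at 0) ran from 2.17 to 2.33 and 0.136 to 0.760 CPM. Adipocyte markers (1 of 5 at 0) ran from 4.36 to 4.85 and 0.680 to 1.51 CPM, and muscle markers (3 of 7 at 0) from 1.13 to 2.68 and 1.56 to 2.34 CPM. Endothelial and adipocyte sums were thus lower in shCdGAP. Single leukocyte markers differed in direction, with Cd68 at 17.6 ± 3.60 and 6.44 ± 4.04 CPM (adjusted p = 0.0709) and Itgam, which rose, at 0.213 ± 0.123 and 1.41 ± 0.236 CPM (adjusted p = 0.00788). The part of these markers in the results below was not tested. In bulk RNA, fewer cells expressing a gene and less RNA per cell cannot be told apart.

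Micu2 (ENSMUSG00000021973) lies on the minus strand of GRCm38 chromosome 14 from 57916280 to 57999262. Its promoter is shown because the gene and its divergent neighbour 3110083C13Rik, a transcript on the opposite strand, start 61 bases apart in the annotation. The neighbour had 10 counts in shCTL and 0 in shCdGAP, too few to compare the groups. The Mcub promoter is shown beside that of Micu2, since Mcub was the partner gene with the largest difference after Micu2. Both are the 250 bases before the RefSeq start (build GRCm38.p6, minus strand, chr14:57999263-57999512 and chr3:129970207-129970456). Capitals mark CG dinucleotides, the sites of DNA methylation, which was not measured here.
Micu2: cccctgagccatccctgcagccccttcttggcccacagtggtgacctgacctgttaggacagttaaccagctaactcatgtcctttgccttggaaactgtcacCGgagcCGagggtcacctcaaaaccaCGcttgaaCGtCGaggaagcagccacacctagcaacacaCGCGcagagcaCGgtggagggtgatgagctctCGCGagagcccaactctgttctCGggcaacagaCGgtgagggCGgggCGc
Mcub: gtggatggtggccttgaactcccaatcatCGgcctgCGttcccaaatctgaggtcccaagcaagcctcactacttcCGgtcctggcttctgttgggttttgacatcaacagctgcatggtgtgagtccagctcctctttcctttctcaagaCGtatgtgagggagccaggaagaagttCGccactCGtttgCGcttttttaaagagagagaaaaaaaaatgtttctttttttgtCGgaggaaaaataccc
The Micu2 window held 14 CG dinucleotides and a GC content of 60.4%. Of 32851 promoter windows of the same length in the RefSeq table, 70.6% had fewer. The Mcub window held 8, with 57.0% of windows below it, and the median window held 6. The windows of Mcu (15), Letm1 (17), Vdac1 (17 and 22 at its 2 starts), Mcur1 (21) and Smdt1 (23) held more than that of Micu2. The window of 3110083C13Rik, which overlaps the Micu2 window in part, held 36, with 97.4% of windows below it. The E-box CACCTG, a sequence that Zeb proteins can bind, was searched on both strands. It occurred in neither window and in 17.2% of all windows. The shorter CACCT, which every CACCTG contains, occurred 2 times in the Micu2 window and in none of the Mcub window, and 13.8% of windows held at least 2. Sequences for 5 of the 9 genes matched the table. Among those, CACCTG was present before Letm1 and before a later start of Vdac1. As before Micu2, CACCT occurred 2 times before Smdt1 and 2 times before that later start of Vdac1. It occurred 1 time before Letm1, 1 time before the earlier start of Vdac1 and 0 times before Mcu.

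Micu2 was close to absent in all 3 shCdGAP libraries. It was measured at 23.8, 29.6 and 31.5 CPM in shCTL replicates 1 to 3 (28.3 ± 4.02, SD, n = 3) and at 0.0894, 0.0453 and 0.0396 CPM in shCdGAP (0.0581 ± 0.0272, n = 3). Behind these levels were 2112 counts in shCTL and 4 in shCdGAP, with 1 or 2 counts in each shCdGAP library. The level in shCTL was 501 times that in shCdGAP, with an exact 95% binomial interval of 195 to 1840 that covers counting error only. Every shCdGAP value lay under the 0.119 to 0.136 CPM that a count of 0 would still allow in those libraries (3 counts). At these counts the shCdGAP libraries could not be told apart. The fitted log2 fold change was −8.82, rank 15 from the lowest among tested genes.

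**Figure D1:**
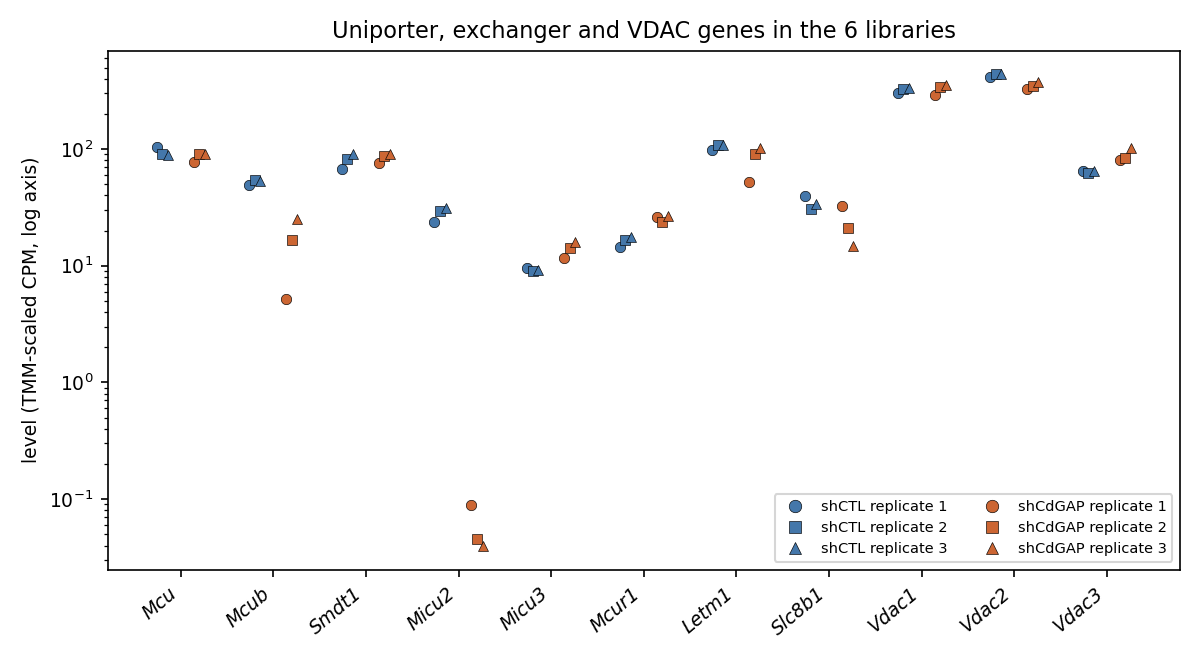
Level of the 9 genes and of the uniporter partners Mcub and Mcur1 in each library (TMM-scaled CPM, log axis), with shCTL in blue and shCdGAP in orange and a symbol for each replicate. Micu2 is the gene whose shCdGAP points fall below 0.1 CPM, while Mcu, Smdt1 and Vdac1 overlap between groups.

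None of the tested genes around Micu2 fell in edgeR on all libraries. Within 1 Mb, 29 other genes were annotated, 10 of them had enough counts to be tested, and 14 had no count in any library. Of the 10, Cryl1 rose and 0 fell, against a background of 21.7% of all tested genes called. Their log2 fold changes ran from −0.49 to 1.77 with a median of 0.14. Zdhhc20, a palmitoyltransferase gene and the nearest tested gene in that direction, starts at −109 kb. It stood at 48.9 ± 5.56 CPM in shCTL and 34.7 ± 11.3 CPM in shCdGAP (log2 fold change −0.49 ± 0.237, SE, adjusted p = 0.197). Without shCdGAP replicate 1 its log2 fold change was −0.78 (adjusted p = 0.0014). Cryl1, which encodes lambda-crystallin, went from 1.13 ± 0.154 to 3.87 ± 1.54 CPM (log2 fold change 1.77 ± 0.347, adjusted p = 0.0146). That call was lost without shCTL replicate 2 (adjusted p = 0.0744) or 3 (adjusted p = 0.0686).

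The remaining tested neighbours were not called in edgeR on all libraries. Mrpl57, a mitochondrial ribosome gene, stood at 13.7 ± 1.92 CPM in shCTL and 17.2 ± 4.79 CPM in shCdGAP, and it passed without shCdGAP replicate 1 (log2 fold change 0.55, adjusted p = 0.0182). Ska3, a kinetochore gene, had 44 counts in shCdGAP replicate 1 and 596 and 612 in the other shCdGAP libraries, against 248 to 581 in shCTL. Log2 fold changes were 0.75 for Ift88, 0.21 for Eef1akmt1, −0.19 for Xpo4, −0.35 for the Hippo kinase gene Lats2 and 0.07 for Sap18. Xpo4 and Lats2 overlap on the same strand and could share reads. On the other side of Micu2, the single tested feature was the ribosomal pseudogene Rpl13-ps3 (log2 fold change 0.79, adjusted p = 0.0678), whose reads its parent gene could share. It passed in DESeq2 (adjusted p = 0.049). The divergent transcript 3110083C13Rik had 0, 4 and 6 counts in shCTL, too few to be tested. No shCdGAP library had a count, but neither did shCTL replicate 1, so these counts do not establish a difference.

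**Figure D2:**
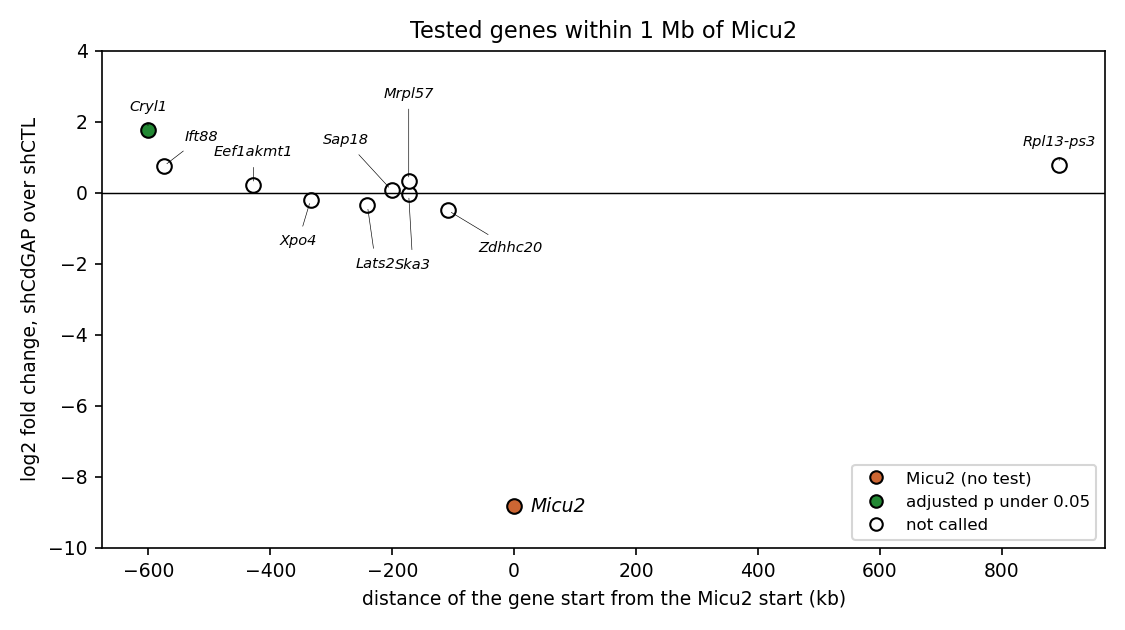
Log2 fold change (shCdGAP over shCTL) of the tested genes within 1 Mb of Micu2 against the distance of each gene start from the Micu2 start in kb. The 10 neighbours lie between −0.49 and 1.77, and Micu2, plotted without a test, lies at −8.82.

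Genes of the pore itself did not pass the test. Mcu (ENSMUSG00000009647, chromosome 10 from 59446984 to 59616692), the pore-forming subunit, stood at 105, 90.8 and 88.6 CPM in shCTL and 76.8, 91.0 and 90.9 CPM in shCdGAP. The groups overlapped, and the fold change of 0.91 had an interval of 0.773 to 1.07 (nominal 95%, normal approximation from the SE, adjusted p = 0.481). Smdt1 (ENSMUSG00000022452, chromosome 15 from 82338959 to 82349091), which encodes EMRE, stood at 67.5, 82.0 and 90.2 CPM in shCTL and 75.6, 86.5 and 90.4 CPM in shCdGAP. Its groups overlapped too, with a fold change of 1.05 and an interval of 0.869 to 1.28 (adjusted p = 0.759). Mcub (ENSMUSG00000027994, chromosome 3 from 129914960 to 129970206), the MCU-like subunit, was lower in every shCdGAP library. The shCTL replicates held 48.8, 53.8 and 53.5 CPM, against 5.14, 16.7 and 25.1 CPM in shCdGAP, with the lowest in replicate 1. The log2 fold change of −1.73 ± 0.511 narrowly missed the threshold (adjusted p = 0.0564). It passed with the replicate number as a block (−1.97, adjusted p = 0.0471) and in DESeq2 (−1.72, adjusted p = 0.00521). Without shCdGAP replicate 1 it was −1.30 (adjusted p = 0.000647), and it also passed without shCdGAP replicate 3 (−2.25, adjusted p = 0.0347) and with no filter on low counts (adjusted p = 0.0423). It did not pass without any 1 shCTL library (adjusted p from 0.14 to 0.15), without shCdGAP replicate 2 (0.141), with RLE scaling (0.0594) or among genes with a mean of at least 10 CPM (0.0696).

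Of the genes that tune the pore, Micu3 lay just outside the threshold and Mcur1 rose. Micu3 (ENSMUSG00000039478, chromosome 8 from 40307458 to 40386308), the paralog best known from neurons and muscle, stood at 9.60, 9.10 and 9.18 CPM in shCTL. It was higher in each shCdGAP library, at 11.6, 14.1 and 16 CPM, and the groups did not overlap. Its log2 fold change was 0.58 ± 0.166 (adjusted p = 0.0522). It passed without shCdGAP replicate 1 (0.71, adjusted p = 0.00327) and in DESeq2 (adjusted p = 0.0216). It did not pass with the replicate block (0.0883), no filter (0.0939), RLE scaling (0.058) or a mean of at least 10 CPM (0.0639), nor without any 1 of the other libraries (0.119 to 0.187). Mcur1 (ENSMUSG00000021371, chromosome 13 from 43538412 to 43560191), which encodes an inner membrane factor of uniporter assembly, rose from 16.3 ± 1.72 to 25.6 ± 1.5 CPM. The libraries stood at 14.4, 16.7 and 17.8 CPM against 26.1, 23.9 and 26.7 CPM. The log2 fold change was 0.65 ± 0.137 (adjusted p = 0.0189), and the call was lost on omitting any 1 library apart from shCdGAP replicate 1 (adjusted p from 0.0511 to 0.0861).

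The exchangers were not called. Slc8b1 (ENSMUSG00000032754, chromosome 5 from 120511168 to 120534024), which encodes NCLX, stood at 39.8, 30.4 and 34.1 CPM in shCTL and 32.2, 21.2 and 14.7 CPM in shCdGAP. The shCdGAP replicate 1 value lay within the shCTL range and the other shCdGAP values lay below it. The log2 fold change was −0.61 ± 0.29 (adjusted p = 0.19), and without that replicate it was −0.94 (adjusted p = 0.00434), the only alternative run under which Slc8b1 passed. Letm1 (ENSMUSG00000005299, chromosome 5 from 33739673 to 33782817) stood at 98.3, 109 and 109 CPM in shCTL and 52.1, 91.5 and 102 CPM in shCdGAP. Here shCdGAP replicate 1 was the low library. The log2 fold change was −0.37 ± 0.244 (adjusted p = 0.341) with it and −0.12 without it (adjusted p = 0.344).

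Of the VDAC channels of the outer membrane, only Vdac3 passed in edgeR on all libraries. Vdac3 (ENSMUSG00000008892, chromosome 8 from 22577075 to 22593813) rose from 65.0, 62.5 and 64.7 CPM in shCTL to 81.2, 84.6 and 102 CPM in shCdGAP. Its log2 fold change was 0.48 ± 0.119 (fold change 1.39, adjusted p = 0.0324). The call was lost on omitting any 1 library apart from shCdGAP replicate 1 (adjusted p from 0.0652 to 0.143) and with no filter on low counts (adjusted p = 0.0732). Vdac3-ps1, a pseudogene with which Vdac3 could share reads, was counted at 7.34 ± 0.951 CPM in shCTL and 9.17 ± 1.19 CPM in shCdGAP. Vdac2 (ENSMUSG00000021771, chromosome 14 from 21831269 to 21845879), which also restrains the death factor BAK, stood at 418, 437 and 436 CPM in shCTL and 328, 350 and 376 CPM in shCdGAP. The groups did not overlap, but the log2 fold change of −0.29 ± 0.0955 missed the threshold (adjusted p = 0.0756). It was −0.23 when shCdGAP replicate 1 was omitted (adjusted p = 0.0493), the only alternative run under which Vdac2 passed. Vdac1 (ENSMUSG00000020402, chromosome 11 from 52360860 to 52389397) stood at 301, 328 and 334 CPM in shCTL and 289, 340 and 357 CPM in shCdGAP. Its fold change of 1.02 had an interval of 0.875 to 1.20 (adjusted p = 0.879).

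Over the 8 genes other than Micu2, 1 rose and 0 fell in edgeR, against 10.4% of all tested genes that rose and 11.4% that fell. At this size a single call is near the background. The groups did not overlap for 3 of the 8 (Micu3, Vdac2 and Vdac3), against 44.1% of all tested genes. The median log2 fold change of the 8 was −0.05, beside 0.01 over all genes, and the median size of change was 0.33, the same as over all genes (0.33). In DESeq2 2 of the 8 rose, Vdac3 and Micu3, against 11.1% of genes in that test. Without shCdGAP replicate 1, 2 rose (Vdac3 and Micu3) and 2 fell (Slc8b1 and Vdac2), while 41.8% of all tested genes were called (19.9% rose and 21.9% fell).

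**Figure D3:**
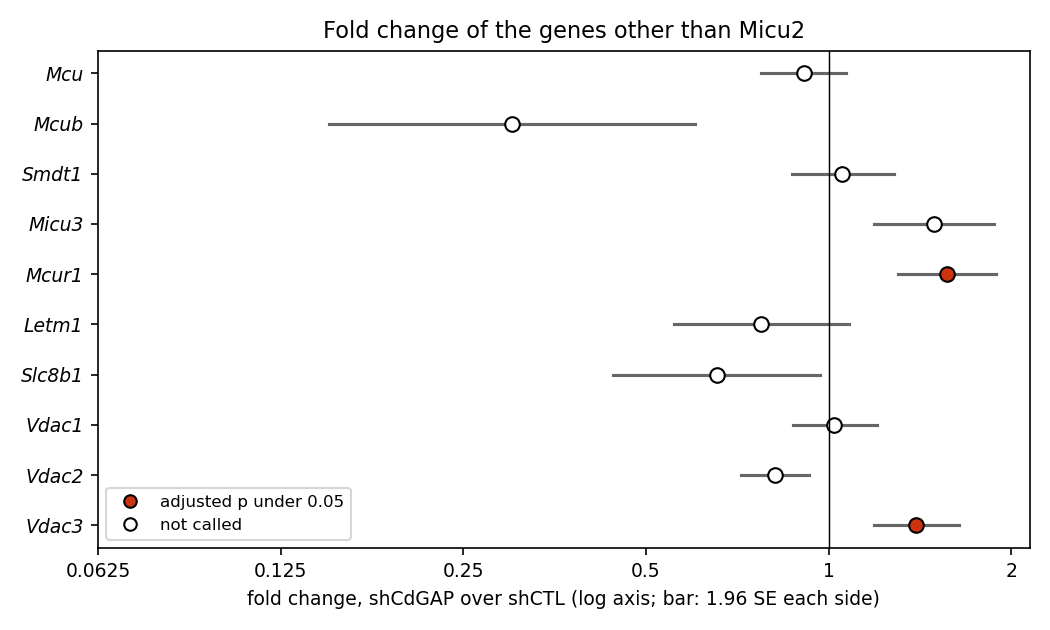
Fold change of the 8 genes other than Micu2 and of Mcub and Mcur1, shCdGAP over shCTL on a log axis. Bars are nominal 95% intervals from the SE by a normal approximation, and they are narrower than the edgeR F test implies. The Slc8b1 bar (0.441 to 0.969) excludes 1, although its unadjusted p in that test was 0.0753. Filled points passed an adjusted p of 0.05 (Vdac3 and Mcur1), and Mcub lies farthest from 1 at a fold change of 0.301.

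Set against each other per exon length, the transcripts in shCTL ran from Vdac1 at the top to Micu3 at the bottom. In TPM (length-scaled counts summing to 1e+06 per library), levels were 354 ± 23.4 for Vdac1, 267 ± 9.92 for Vdac2, 214 ± 32.9 for Smdt1, 130 ± 1.76 for Vdac3 and 114 ± 7.61 for Mcub. Mcu (39.4 ± 3.18 TPM), Micu2 (35.4 ± 5.39), Letm1 (31.5 ± 2.24) and Slc8b1 (28.9 ± 3.55) followed, and the neighbours in this stretch overlapped between libraries. Mcur1 (10.8 ± 1.25 TPM) and Micu3 (4.35 ± 0.0682 TPM) were lowest. These positions depend on the length taken for each gene. The merged exons of Mcu span 6936 bases and those of Micu3 6153, while their median coding transcripts have 1975.5 and 2219 bases. Micu2 has 2310 and 2329. With coding transcript lengths Vdac2 came first, Micu2 moved from position 7 to 9 of the 11, and Micu2 stood at 0.257 per Mcu transcript in place of 0.910.

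Micu3 did not reach the amount of transcript at which Micu2 stood in shCTL. Micu3 was at 4.35 ± 0.0682 TPM in shCTL and 6.02 ± 1.03 TPM in shCdGAP, against 35.4 ± 5.39 TPM of Micu2 in shCTL and 0.0666 ± 0.0295 TPM in shCdGAP. By coding transcript length, Micu3 per Mcu transcript was 0.0815, 0.0892 and 0.0922 in shCTL and 0.134, 0.137 and 0.157 in shCdGAP. The shCdGAP ratios of Micu3 lay below the shCTL ratios of Micu2 by the same measure, which were 0.192, 0.277 and 0.301.

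Ratios to Mcu in the same library, which do not depend on library scaling, were compared for 9 genes with a two-sided exact permutation test. With 3 libraries against 3 its smallest possible p is 0.1, so no ratio could pass 0.05. Mcub per Mcu went from 2.45, 3.12 and 3.18 in shCTL to 0.353, 0.968 and 1.45 in shCdGAP (exact permutation p = 0.1, adjusted p = 0.225). All ratios in this paragraph are per merged exon length unless coding length is named. By coding transcript length Mcub per Mcu was 0.791, 1.01 and 1.03 in shCTL and 0.114, 0.313 and 0.469 in shCdGAP. Mean Vdac3 per Mcu by coding length was 0.967 in shCTL and 1.48 in shCdGAP. The ratios of Micu3 (0.111 ± 0.00702 and 0.181 ± 0.0153), Mcur1 (0.278 ± 0.0523 and 0.476 ± 0.0629) and Vdac3 (3.31 ± 0.273 and 5.06 ± 0.488) were higher in shCdGAP without overlap, each at the same p. The other 5 ratios overlapped between groups (exact permutation p from 0.3 to 0.4). Smdt1 per Mcu was 5.51 ± 1.24 and 6.29 ± 0.151. The Micu2 ratio, given without a test, was 0.681, 0.980 and 1.07 in shCTL and 0.00437, 0.00224 and 0.00196 in shCdGAP.

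**Figure D4:**
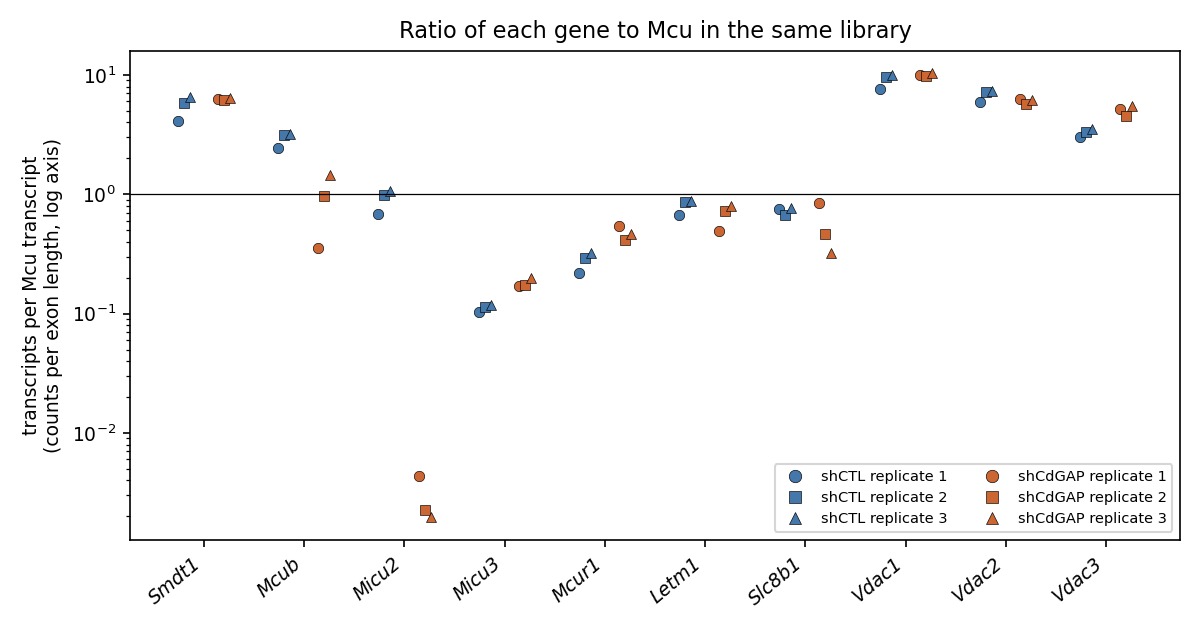
Transcripts of each gene per Mcu transcript in the same library (counts per merged exon length, log axis), with shCTL in blue and shCdGAP in orange. Mcub ratios are lower in all shCdGAP libraries, Micu3, Mcur1 and Vdac3 ratios are higher, and Micu2 ratios lie under 0.005 in shCdGAP.

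The wider set of mitochondrial calcium genes changed in both directions. Of 76 genes chosen by function, 68 were tested, 7 rose and 12 fell, with 10.4% and 11.4% of all tested genes called in these directions. Groups did not overlap for 30 of the 68 (44.1% of all genes), and the median log2 fold change was −0.19, beside 0.01 over all genes. Counts depended on the libraries. Without shCdGAP replicate 1, 11 rose and 20 fell (19.9% and 21.9% of all genes). Without shCTL replicate 2, 3 rose and 2 fell (3.95% and 6.28% of all genes), and without shCTL replicate 3, 3 rose and 3 fell (4.13% and 6.55%). Without shCTL replicate 1, 5 fell (7.65% of all genes), and without shCdGAP replicate 2, 3 fell (6.94%). In every list below, counts stand against the same 10.4% risen and 11.4% fallen over all genes, and with so few genes a list they show nothing particular to it. Of 8 proteases and assembly factors that act on the uniporter, 1 rose and 1 fell, both subunits of the m-AAA protease that removes unassembled EMRE. Spg7, which encodes paraplegin, rose from 50.6, 59.9 and 62.0 CPM to 120, 96.7 and 97.3 CPM (log2 fold change 0.86 ± 0.138, adjusted p = 0.00698). Afg3l2 fell from 97.4 ± 3.37 to 76.0 ± 4.64 CPM (log2 fold change −0.36 ± 0.0961, adjusted p = 0.0415). The Afg3l2 call was lost with the replicate block (adjusted p = 0.0778), with no filter (0.0986) and on omitting any 1 library apart from shCdGAP replicate 1 (0.0746 to 0.185).

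Of 7 tested genes for mitochondrial EF-hand carriers and transport GTPases, 2 rose and 1 fell (10.4% and 11.4% of all genes). Slc25a23, a calcium-regulated ATP-magnesium carrier reported to bind the uniporter, rose from 5.06, 3.97 and 3.87 CPM to 57.5, 24.7 and 20.9 CPM (log2 fold change 3.00 ± 0.431, adjusted p = 0.00481). The aspartate-glutamate carriers went opposite ways. Slc25a13 (citrin) rose from 21.7 ± 1.87 to 34.8 ± 0.163 CPM (adjusted p = 0.00902) and Slc25a12 (aralar) fell from 83.1 ± 2.43 to 54.1 ± 8.11 CPM (adjusted p = 0.0201). The Slc25a13 call was lost without shCTL replicate 2 (0.062) or 3 (0.0597), and the Slc25a12 call without any shCTL library or shCdGAP replicate 2 (0.0726 to 0.0907). Of 4 other tested calcium carriers, 1 fell. This was Slc8a1, a sodium-calcium exchanger of the plasma membrane, which had 51, 43 and 38 counts in the shCTL libraries. No shCdGAP library had a count, which makes it at least 41.7-fold lower (floor of 3 counts over the group, adjusted p = 0.00405).

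Of 16 tested genes of ER calcium release and ER-mitochondria contacts, 1 rose and 3 fell, so 4 were called where 21.7% of all genes were. Pdzd8, which tethers the ER to other organelles, rose from 116 ± 10.1 to 156 ± 10.3 CPM (log2 fold change 0.44 ± 0.11, adjusted p = 0.0339). The ryanodine receptor gene Ryr1 fell from 6.96, 3.35 and 2.97 CPM to 0.536, 0.453 and 0.476 CPM (−3.16 ± 0.421, adjusted p = 0.00367), and the mitofusin gene Mfn1 fell from 108 ± 1.58 to 76.0 ± 6.84 CPM (adjusted p = 0.0162). The Pdzd8 call was lost with the replicate block (adjusted p = 0.0656), with no filter (0.0772) and on omitting any 1 library apart from shCdGAP replicate 1 (0.0585 to 0.155). The Mfn1 call was lost without shCTL replicate 2 or 3 or shCdGAP replicate 2 (0.0757 to 0.0808). Of 9 tested pumps and store-operated entry genes, 1 rose and 2 fell (10.4% and 11.4% of all genes). Atp2b4, a plasma membrane calcium pump, rose from 4.75, 4.51 and 4.97 CPM to 97.5, 71.4 and 55.0 CPM (log2 fold change 3.97 ± 0.244, adjusted p = 0.000284). Its paralog Atp2b1 fell from 173 ± 4.66 to 113 ± 10.9 CPM (adjusted p = 0.0095), a call lost without shCTL replicate 2 (0.0579). Orai1, the pore of store-operated entry, fell from 32.3 ± 0.185 to 19.8 ± 2.84 CPM (adjusted p = 0.0162), a call lost without any shCTL library or shCdGAP replicate 2 (0.0548 to 0.0768).

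Downstream of matrix calcium, 1 of 10 genes of calcium-sensitive metabolism and the permeability transition fell and 0 rose (11.4% and 10.4% of all genes). Idh3b, a subunit of isocitrate dehydrogenase, went from 149 ± 14.5 to 91.9 ± 12.2 CPM (log2 fold change −0.70 ± 0.136, adjusted p = 0.0143), a call lost without shCTL replicate 2 or 3 or shCdGAP replicate 2 (0.0638 to 0.0698). Among 12 genes of mitochondrial mass and biogenesis, 1 rose and 3 fell (10.4% and 11.4% of all genes). The complex II gene Sdha rose from 187 ± 2.15 to 301 ± 44.4 CPM (adjusted p = 0.0115). The citrate synthase gene Cs fell from 699 ± 23.3 to 508 ± 16.2 CPM (adjusted p = 0.0144), and Tfam, which packages mitochondrial DNA, fell from 92.6 ± 2.61 to 56.7 ± 10.8 CPM (adjusted p = 0.0211). Calls were lost for Sdha without shCTL replicate 2 or 3 (0.0606 and 0.063), and for Cs and Tfam without any shCTL library or shCdGAP replicate 2 (0.0531 to 0.0893).

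**Figure D5:**
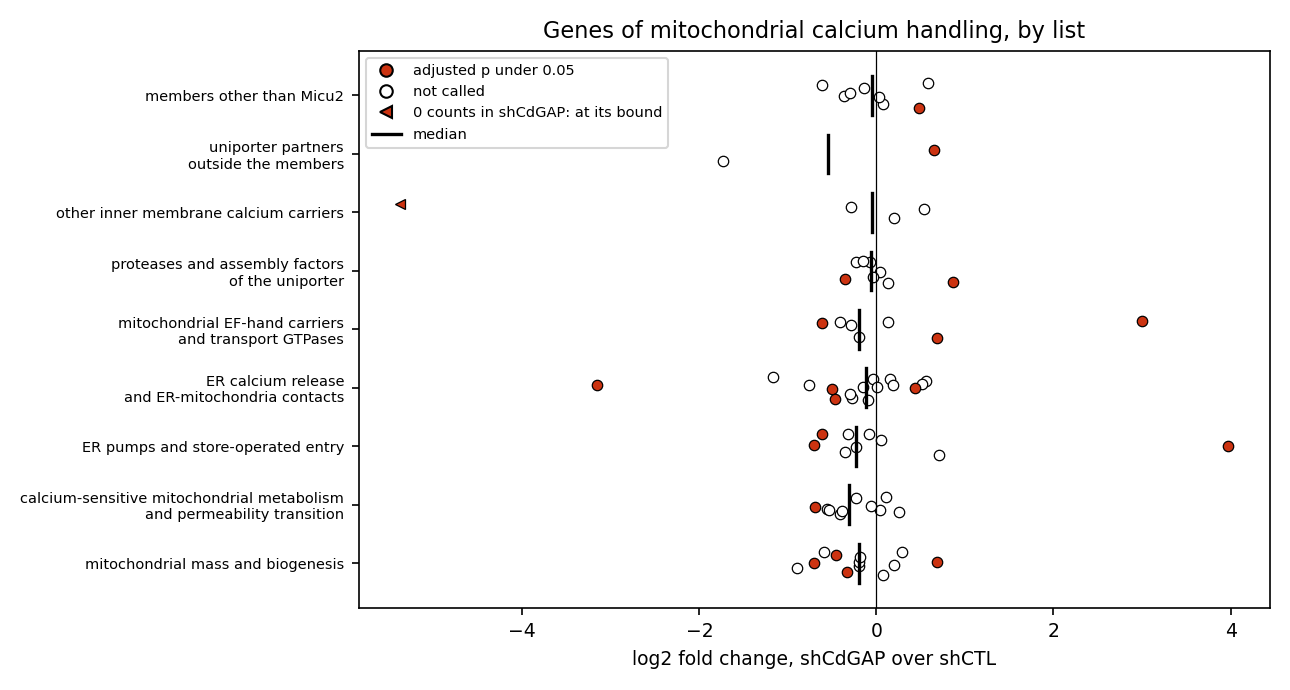
Log2 fold change (shCdGAP over shCTL) of each tested gene in the lists of mitochondrial calcium handling, with a vertical bar at the median of each list. Filled points passed an adjusted p of 0.05, and Slc8a1, with 0 counts in shCdGAP, is a triangle at its bound of −5.38. Ryr1 (−3.16), Slc25a23 (3.00) and Atp2b4 (3.97) lie farthest from 0 among the others.

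The genes most like Micu2 over the 6 libraries, by Euclidean distance between mean-centred log2 CPM profiles, were Procr, Klhl13, Disp2, Scg2 and Qrfp, at distances of 0.464, 0.594, 0.959, 0.989 and 0.999 log2 units. Procr, the protein C receptor gene, was at 28.1 ± 0.243 CPM in shCTL and had 5 counts in shCdGAP. Klhl13, an adaptor of a ubiquitin ligase, was at 55.7 ± 8.21 CPM in shCTL and had 12 counts in shCdGAP. None of the 5 lies on chromosome 14, with 3 on chromosome 2, 1 on chromosome 1 and 1 on the X. The measure favours genes that share the near absence of reads in shCdGAP, so these values are a description.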

How the data were processed

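The 6 libraries were RNA-seq of total RNA. For each library the authors deposited unnormalized counts of read pairs by gene. These came from featureCounts 1.4.6, per the file headers, run on GRCm38 with Ensembl release 77 genes, on pairs with both ends aligned, with strand setting 2 (reverse-stranded) and no option for multi-mapping reads. Merged exon lengths, a further deposited column, came from the same annotation. The submitters' processing notes also list Trimmomatic 0.30, TopHat2 2.0.14, Cuffdiff 2.2.1 and DESeq. Gene symbols from GENCODE M21 matched 40254 of 41214 genes.

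Tests used edgeR 4.0.16 (quasi-likelihood F test, TMM scaling, filterByExpr with minimum count 10 and minimum total 15) on all 6 libraries, with Benjamini-Hochberg adjustment over 13483 genes and calls at an adjusted p under 0.05. Unless DESeq2 1.42.0 is named, adjusted p-values come from edgeR in R 4.3.3. SE is the absolute log2 fold change over the square root of F. Intervals of fold changes took a normal multiple of this SE, so their 95% is nominal. They are narrower than the F test implies, and calls rest on the test alone. Ratios to Mcu added 0.5 to each count. On simulated counts for the 13483 genes, 100 genes were changed 2-fold and 100 changed 4-fold. There edgeR called 19% of 2-fold and 84% of 4-fold changes, with 5.5% of calls false. The changed share was far below the 21.7% called in the data, so these rates need not hold for the data. The members and lists were chosen with earlier results of these data known. Named genes were the members, Mcub, Mcur1, Arhgap31, up to 2 risen and 2 fallen genes of each list by adjusted p, the tested neighbours (lower coordinate within 1 Mb of that of Micu2) and the 5 most like Micu2. Krt5, Krt7, Krt8, Krt14, Krt18, Cdh1, Cldn4, Epcam, Cd68, Itgam, 3110083C13Rik and Vdac3-ps1 were added after their values were seen. A planned result on 1 further gene is not reported here, and the lists and ratios leave it out.

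Replicate numbers come from the sample titles. Deviations from group means of same-numbered libraries had correlations of 0.36, 0.29 and 0.25 (numbers 1, 2 and 3). However, shCTL 3 with shCdGAP 2 (0.25) and shCTL 2 with shCdGAP 3 (0.19) also correlated, so a pairing by number was not settled. The main edgeR test and the permutation test of ratios used no pairing, and the block is an alternative. No libraries were duplicates: even the closest, shCTL replicates 2 and 3, differed beyond sampling noise (chi-square over its degrees of freedom 3.16).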

Additional observations from a re-analysis of the deposited data

How the results depend on the processing

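Alternatives were RLE scaling, no filter on low counts, a mean of at least 10 CPM, DESeq2, the replicate block, 0 or 2 added to counts in ratios, and leaving out each library. Over all genes, 1396 rose (10.4%) and 1534 fell (11.4%), and with at least 10 CPM 870 (9.33%) and 825 (8.85%). With no filter 5.9% rose and 7.33% fell, and in DESeq2 11.1% and 12.1%. With 1 library left out, 538 to 2753 rose (3.95% to 19.9%) and 856 to 3032 fell (6.28% to 21.9%). The counts that follow stand against these shares. Of the 8 members tested, 1 rose and 0 fell; 0 rose with no filter and 2 in DESeq2, and 0 to 2 rose and 0 to 2 fell with 1 library left out. Pathway genes numbered 3 to 11 risen and 2 to 20 fallen with 1 library left out. Of the Micu2 neighbours 1 rose; 0 rose with at least 10 CPM or within 0.5 Mb and 2 in DESeq2, and 0 to 2 rose and 0 to 1 fell with 1 library left out. The cause of these shifts was not tested.

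With the replicate block the calls of Mcub (log2 fold change −1.97, adjusted p = 0.0471), Afg3l2 (−0.36, 0.0778) and Pdzd8 (0.44, 0.0656) changed. No other gene named by the rule above crossed the threshold. For the genes added after their values were seen, block results were not recorded. The Vdac3 log2 fold change was 0.47 with no filter (adjusted p = 0.0732), and with 1 library left out it ran from 0.37 to 0.56. Micu3 was 0.58 in DESeq2 (adjusted p = 0.0216) and 0.47 to 0.71 with 1 library left out. With 1 library left out, log2 fold changes ran from −0.94 to −0.38 for Slc8b1, −0.34 to −0.23 for Vdac2, −0.04 to 0.17 for Smdt1, −0.03 to 0.13 for Vdac1, −0.41 to 0.09 for Xpo4, −0.03 to 0.24 for Sap18 and −0.46 to 0.50 for Ska3. The Micu2 levels moved by less than 1 SD under every alternative run.

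Depth limits Micu2 in shCdGAP, where 4 counts set the fold. Length, an alternative chosen after seeing the data, put Micu2 in shCTL at 0.910 transcripts per Mcu transcript by merged exons and 0.257 by coding transcripts.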
